A study of Mus musculus with 6 samples.

Results

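Cell cycle and DNA replication genes were followed in mouse lung as a set of 38 named genes: the cyclins and cyclin-dependent kinases (CDKs), the proteins that license and fire replication origins, the enzymes of DNA synthesis, and the kinases and checkpoint proteins of mitosis. Every probe set whose single gene symbol in the array annotation is one of these genes was taken, which gave 35 of the 38 genes, of 8252 genes with a probe set of their own, and 49 of the 12488 probe sets on the array. Ccnb1 (cyclin B1) and Bub1b (a spindle checkpoint kinase) have no probe set under their own symbol alone. Tyms (thymidylate synthase) is annotated only on 2 probe sets that carry several symbols, and these were not used. A single probe set stands for 23 of the genes, 2 probe sets for 10 and 3 probe sets for 2 (Plk1 and Bub1).

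Lung RNA from C57, DBA and ICR mice was hybridised to Affymetrix arrays, with 1 array from a smoked mouse and 1 from a control mouse of each strain, 6 in all. Smoked mice had breathed the smoke of 3 cigarettes a day on 5 days a week over 4 weeks, and the control lungs are labelled as normal. The labels give no age, sex, substrain or genetic modification, and the series title asks which lungs resist smoke and which are sensitive to it. Each strain and exposure has 1 array, so a difference within a strain is a description with no test, and the test across strains rests on 3 pairs.

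Most cells of the adult lung are resting, and dividing cells are a small share of the tissue. In a cell that enters division, D-type cyclins with CDK4 phosphorylate the retinoblastoma protein and free the E2F factors, which switch on the genes for cyclin E, the MCM helicase and the DNA synthesis enzymes. A later wave, controlled through CHR and CCAAT elements of the promoters, brings up cyclin A2, the B cyclins, CDK1, topoisomerase II alpha and the spindle kinases. In a tissue sample, fewer cells of a type and less RNA per cell cannot be told apart.

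The promoters of 5 members are shown because these genes carry the patterns described below: Cdk1 and Mcm2 read higher on the smoked array in all 3 strains, and Mcm5, Ccnb2 and Top2a had opposite signs in different strains. Each run is 300 bases, 250 before and 50 after the annotated start, written 5′ to 3′ on the gene's strand, from RefSeq (GRCm38.p6). Capitals mark E2F-like motifs (TTCCCGC or else TTCGCGC or else TTGGCGC), CHR-like motifs (TTTGAA or else TTCGAA) and CCAAT motifs on either strand. The windows are chr10:69352863-69353162 (minus strand) for Cdk1, chr6:88898731-88899030 (minus) for Mcm2, chr8:75109259-75109558 (plus) for Mcm5, chr9:70421505-70421804 (minus) for Ccnb2 and chr11:99024140-99024439 (minus) for Top2a.
Cdk1: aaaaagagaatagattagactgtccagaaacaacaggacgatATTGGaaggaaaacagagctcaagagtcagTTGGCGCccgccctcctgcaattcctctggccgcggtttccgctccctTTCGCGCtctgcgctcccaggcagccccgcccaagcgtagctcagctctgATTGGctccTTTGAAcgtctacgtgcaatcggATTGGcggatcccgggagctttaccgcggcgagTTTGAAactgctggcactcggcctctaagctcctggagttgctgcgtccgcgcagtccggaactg
Mcm2: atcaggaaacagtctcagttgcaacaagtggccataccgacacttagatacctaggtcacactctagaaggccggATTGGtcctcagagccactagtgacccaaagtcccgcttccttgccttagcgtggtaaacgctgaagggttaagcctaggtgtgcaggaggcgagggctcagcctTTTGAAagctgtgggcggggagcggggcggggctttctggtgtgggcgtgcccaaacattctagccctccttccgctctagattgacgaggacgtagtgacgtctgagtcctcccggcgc
Mcm5: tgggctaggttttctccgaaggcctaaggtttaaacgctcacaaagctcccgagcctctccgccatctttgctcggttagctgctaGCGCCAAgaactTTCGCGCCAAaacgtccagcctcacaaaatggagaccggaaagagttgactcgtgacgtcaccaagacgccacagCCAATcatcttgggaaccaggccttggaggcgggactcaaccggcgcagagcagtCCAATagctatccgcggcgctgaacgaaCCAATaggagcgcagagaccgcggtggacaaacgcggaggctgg
Ccnb2: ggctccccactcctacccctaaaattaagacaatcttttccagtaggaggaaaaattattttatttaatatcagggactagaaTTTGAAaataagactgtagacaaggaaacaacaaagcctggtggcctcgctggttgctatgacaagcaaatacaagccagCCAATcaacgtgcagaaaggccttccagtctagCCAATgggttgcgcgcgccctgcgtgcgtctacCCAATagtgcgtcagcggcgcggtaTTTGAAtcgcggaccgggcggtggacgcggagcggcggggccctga
Top2a: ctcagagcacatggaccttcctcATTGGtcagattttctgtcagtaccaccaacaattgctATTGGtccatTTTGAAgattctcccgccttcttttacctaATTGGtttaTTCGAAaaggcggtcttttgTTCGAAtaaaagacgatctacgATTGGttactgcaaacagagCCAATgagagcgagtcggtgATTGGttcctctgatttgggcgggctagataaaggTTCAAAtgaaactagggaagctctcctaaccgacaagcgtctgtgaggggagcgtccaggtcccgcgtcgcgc

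The Cdk1 window holds 2 E2F-like, 2 CHR-like and 3 CCAAT matches, with the nearest CHR-like match beginning 15 bases before the start. Mcm5, a helicase subunit, has 3 E2F-like matches between 164 and 149 bases before the start and no CHR-like match. The 2 matches nearest the start overlap in 1 marked stretch, TTCGCGCCAA. Ccnb2 and Top2a, both mitotic genes, have no E2F-like match in this window and hold 2 and 4 CHR-like matches. Mcm2 has 1 CHR-like and 1 CCAAT match. A promoter window was found for 32 of the 38 genes, as 36 windows because some genes have several starts. Among these, 41.7% held an E2F-like motif, against 8.07% of all 32851 windows of the same length. CHR-like motifs were in 33.3% of the members' windows and 19.2% of all windows, CCAAT in 63.9% and 37.4%, and the SP1-like GGGCGG in 77.8% and 35.7%. A match is a run of letters and was not tested as a binding site, and E2F-like matches can overlap SP1-like ones.

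**Figure D1:**
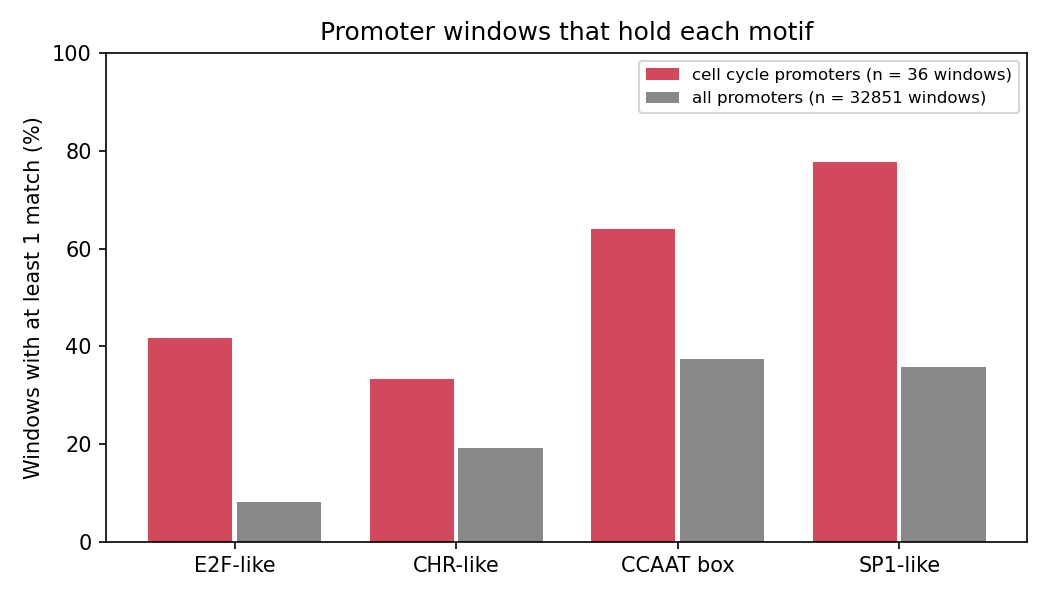
Share of promoter windows with at least 1 match to each motif (percent, both strands), for the 36 windows of the cell cycle genes (red) and for all 32851 windows (grey). The member bar is the higher one for all 4 motifs, and E2F-like motifs stand at 41.7% beside 8.07%.

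The deposited values are intensities on a linear scale. A constant of 8.05, which is the value that 20% of all values fall below, was added before the log2 step. Quantile normalization followed, because the array medians differed by 1.45 on the log2 scale. The median deposited intensity was 60.5, 84.8 and 25.9 on the smoked arrays of C57, DBA and ICR, and 60.1, 68.7 and 52.2 on their control arrays. The ICR smoked array was the dimmest and had the highest ratio of 3′ to 5′ signal for actin, 4.75, a sign of RNA quality, against 1.46 to 2.75 on the other 5. On that array 13 of the 49 probe sets read below the added constant, compared with 6 to 8 on each other array. Of 5 listed markers of alveolar type II cells, 2 were measured, the surfactant genes Sftpc and Sftpb. They summed to between 10859 and 14370 normalized intensity units on every array, with Sftpc the larger throughout. Sftpb had deposited intensities of 6105, 4885 and 1113 on the smoked arrays of C57, DBA and ICR. On their control arrays it had 5192, 4552 and 2603. Its fitted log2 difference was −0.997 in ICR against C57 (limma adjusted p = 0.0348), so the narrow range of the sum does not hold for Sftpb alone.

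Of the 49 probe sets, 26 (for 22 genes) had a mean above the 40th percentile of all probe sets and were tested. This is 53.1%, against 60% of all probe sets without controls. The shares ran by role: 9 of 12 for the G1 cyclins, CDKs and E2f1, 6 of 10 for licensing, 4 of 9 for DNA synthesis and 7 of 18 for mitosis. Genes with no probe set above the filter were Mki67, Top2a, Aurka, Aurkb, Birc5, Bub1, Chek1, Cdc6, Cdc45, Mcm6, Rrm2, Prim1 and Ccne2, most of them genes of S phase and mitosis. Ccne2 (cyclin E2), 2 probe sets of Bub1 and 1 of Rrm1 read below the added constant on all 6 arrays.

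No cell cycle or replication probe set was called for smoke exposure across the 3 strains. The fitted differences, smoked minus control, ran between a log2 difference of −0.31 (Tk1, thymidine kinase) and 0.46 (Ccne1, cyclin E1), with standard errors between 0.17 and 0.38, and limma called 0 of the 26 at an adjusted p of 0.05. No member reached an unadjusted p under 0.05, where 122 of the 7453 probe sets tested did (1.64%), and limma called 3 of those 7453, 0.0403%. All members had an adjusted p of 1.0. The members' median was 0.04 and that of all probe sets tested 0.01, with 15 members positive and 11 negative. The 95% interval lay within a 2-fold change for 24 of the 26, and reached beyond it for Ccne1 and for 1 of the probe sets of Ccnd1 (cyclin D1).

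The members that came nearest to the threshold were Ccne1, which drives entry into S phase, Mcm2, a subunit of the replicative helicase, and Cdk1, the kinase of mitotic entry. Ccne1 read 6.46, 6.26 and 6.55 on the smoked arrays of C57, DBA and ICR, and 6.002, 6.19 and 5.69 on the control arrays (normalized log2 value). The fitted difference was 0.46 (SE 0.24), with an unadjusted p of 0.0894 and an adjusted p of 1.0 from limma. Mcm2 read 6.39, 6.43 and 6.50 on the smoked arrays and 6.24, 5.81 and 6.16 on the control arrays. Its difference was 0.37 (SE 0.23, limma adjusted p = 1.0). Cdk1 read 6.04, 5.75 and 5.98 on the smoked arrays and 5.65, 5.70 and 5.21 on the control arrays. The difference for Cdk1 was 0.40 (SE 0.26, limma adjusted p = 1.0). These sizes lean on single pairs: without the ICR pair, whose smoked array had the highest actin ratio, Ccne1 stood at 0.26 and Cdk1 at 0.21, and without the DBA pair Mcm2 stood at 0.24.

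Higher readings on the smoked array in each of the 3 strains were found for 7 of the 26 probe sets, where 9.86% of all 7453 had them. Lower readings in each strain were found for 0 of the 26, where 7.77% of all had them. Besides Ccne1, Mcm2 and Cdk1 the 7 are Cdc20 (an activator of the anaphase-promoting complex), Lig1 (the ligase that joins Okazaki fragments), Mcm4 (another helicase subunit) and Ccnd1 on 1 of its probe sets. The smallest of the 3 differences for each of these genes lay between 0.02 (Mcm4, ICR) and 0.15 (Mcm2, C57). The count depended on the scaling between arrays: it was 4 after scaling to a common median (Ccne1, Mcm2, Cdk1 and Lig1 remained) and 0 with no scaling, where the median of all probe sets in the ICR pair was itself −0.67. With a filter at the 60th percentile, which tests fewer members, it was 3.

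**Figure D2:**
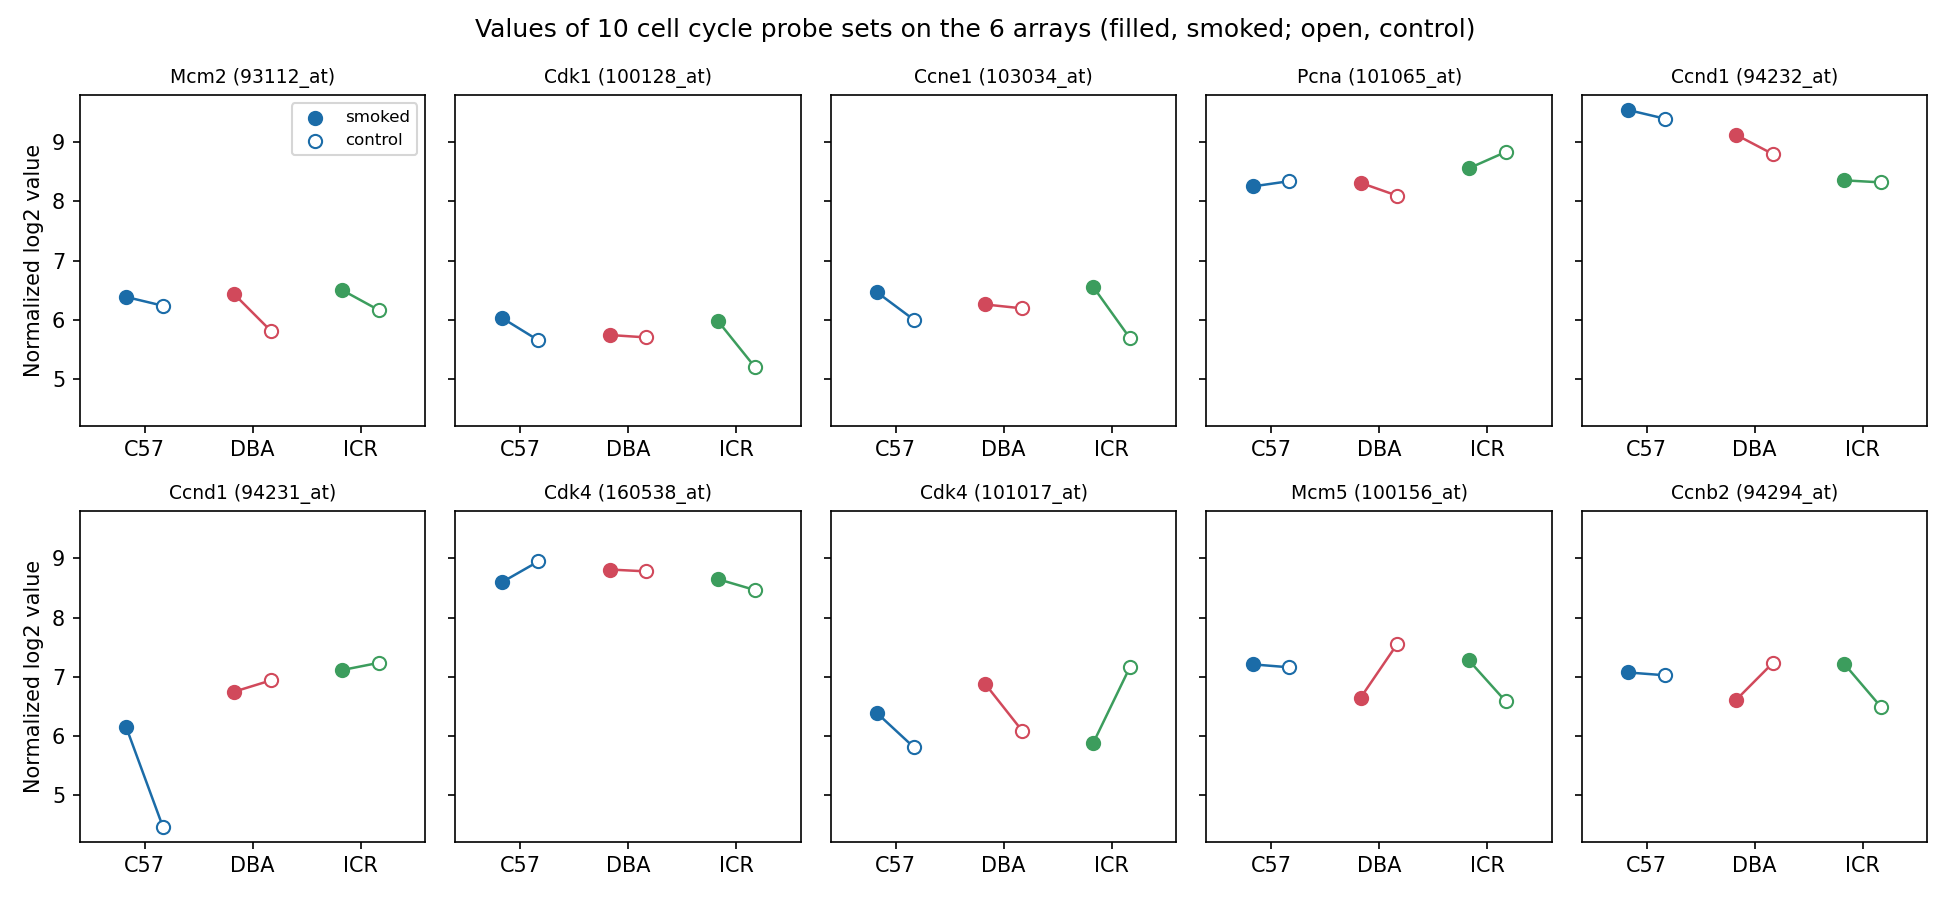
Normalized log2 values of 10 cell cycle probe sets (panels) on the 6 arrays, by strain (colour), with the smoked array as a filled point left of the control array as an open point. Mcm2, Cdk1 and Ccne1 slope the same way in all strains, whereas Mcm5 and Ccnb2 slope one way in DBA and the other in ICR, and the 2 probe sets of Ccnd1 order the strains in opposite ways.

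The other helicase subunits differed among themselves. Mcm4 read 6.78, 6.73 and 6.76 on the smoked arrays of C57, DBA and ICR and 6.64, 6.39 and 6.75 on the control arrays, a difference of 0.17 (SE 0.21). Mcm5 read 7.21, 6.65 and 7.28 on the smoked arrays and 7.16, 7.56 and 6.59 on the control arrays. The C57 arrays were alike for Mcm5, while the smoked array was lower by 0.91 in DBA and higher by 0.69 in ICR. Mcm7 read 6.99, 6.26 and 5.98 on the smoked arrays and 6.69, 6.84 and 6.49 on the control arrays, higher in C57 and lower in the other strains. Its fitted difference was −0.26 (SE 0.25). Mcm3 on its stronger probe set read 6.82, 6.50 and 6.67 on the smoked arrays and 6.76, 6.82 and 6.90 on the control arrays, and its other probe set, at 5.71, 5.92 and 6.29 on the smoked arrays and 5.89, 5.86 and 6.23 on the control arrays, had the opposite sign in all 3 strains. Mcm6 read between 3.2 and 4.34, and Cdc6, the loader of the helicase, between 5.06 and 5.62, both under the filter.

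Among the DNA synthesis genes the values of the more strongly measured probe sets were close between groups. Pcna, the sliding clamp of the DNA polymerases, read 8.25, 8.31 and 8.56 on the smoked arrays of C57, DBA and ICR and 8.34, 8.09 and 8.83 on the control arrays. The groups overlap, and the difference was −0.05 (SE 0.19; 95% interval −0.48 to 0.38). Rrm1, the large subunit of ribonucleotide reductase, read 6.58, 6.84 and 6.37 on the smoked arrays and 6.59, 6.82 and 6.27 on the control arrays. The difference was 0.03 (SE 0.21), and the strains differed from each other by more than the arrays of a pair did. Lig1 read 6.52, 6.05 and 6.44 on the smoked arrays and 6.25, 6.01 and 6.14 on the control arrays, a difference of 0.20 (SE 0.22). Rrm2, the regulated subunit of the reductase, stayed between 4.97 and 5.23 on all arrays, below the filter.

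Tk1, which salvages thymidine, read 5.04, 6.01 and 5.48 on the smoked arrays of C57, DBA and ICR and 5.89, 5.55 and 6.03 on the control arrays with the probe set that passed. The smoked array was the lower one in C57 and ICR and the higher one in DBA. Its other probe set, below the filter, read 5.16, 3.61 and 3.78 on the smoked arrays and 3.83, 4.63 and 3.44 on the control arrays, with the opposite sign in every strain. Prim1, the small primase subunit, read 4.52, 4.27 and 3.98 on the smoked arrays and 4.22, 3.38 and 4.78 on the control arrays, all low.

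The 12 probe sets of the G1 genes, which stand for 8 genes, read higher on the smoked array somewhat more often than lower. Of these 12, 7, 9 and 8 were higher in C57, DBA and ICR, with medians of 0.10, 0.12 and 0.12. Of all 12422 probe sets, 5952, 6458 and 6314 were higher in the same strains, with medians of −0.01, 0.02 and 0.01. With so few probe sets, no leaning of the G1 genes is read from these counts. Of the 9 tested, 2 (Ccne1 and 1 probe set of Ccnd1) were higher in all 3 strains. The median fitted difference of the 9 was 0.13, and none was called. Ccnd2 (cyclin D2) read 5.83, 6.22 and 5.90 on the smoked arrays of C57, DBA and ICR and 5.08, 6.36 and 6.29 on the control arrays, so that only the C57 pair had the smoked array higher, by 0.75. Ccnd3 (cyclin D3) read 8.63, 8.65 and 9.23 on the smoked arrays and 8.86, 8.71 and 8.62 on the control arrays, with the smoked array higher in ICR alone. Cdk4, the partner kinase of the D cyclins, read 8.59, 8.81 and 8.65 on the smoked arrays and 8.95, 8.78 and 8.47 on the control arrays with its stronger probe set. Its differences there were −0.35, 0.03 and 0.18. The second Cdk4 probe set read 6.38, 6.88 and 5.89 on the smoked arrays and 5.81, 6.09 and 7.17 on the control arrays, and in C57 and ICR its sign was opposite to that of the first. E2f1, the transcription factor, differed by 0.18 (SE 0.28) on the probe set that passed, and on its other probe set it read 4.94, 5.43 and 5.21 on the smoked arrays and 5.18, 4.79 and 5.15 on the control arrays. Cdk2, the kinase that pairs with cyclins E and A2, read 6.58, 6.44 and 6.97 on the smoked arrays and 6.8, 6.29 and 6.5 on the control arrays with the probe set that passed, a difference of 0.13 (SE 0.23).

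In the mitotic group, Ccna2 (cyclin A2) read 6.27, 6.38 and 6.37 on the smoked arrays of C57, DBA and ICR and 6.35, 6.61 and 6.18 on the control arrays, a difference of −0.04 (SE 0.22). Ccnb2 (cyclin B2) read 7.07, 6.61 and 7.22 on the smoked arrays and 7.03, 7.24 and 6.49 on the control arrays. Its pattern over the arrays is that of Mcm5, alike in C57, lower on the smoked array in DBA by 0.62 and higher in ICR by 0.73, and it averages to 0.05 (SE 0.27). Cdc20 read 6.98, 6.65 and 6.50 on the smoked arrays and 6.64, 6.63 and 6.46 on the control arrays. Plk1, polo-like kinase, differed by −0.31 (SE 0.24) on 1 probe set and by 0.00 (SE 0.28) on the other that passed. On the first of these it read 6.10, 5.83 and 5.40 on the smoked arrays and 6.60, 5.80 and 5.85 on the control arrays. Mad2l1, the spindle checkpoint protein, differed by −0.02 (SE 0.26). Mki67, the gene of the proliferation antigen Ki-67, read 5.60, 4.99 and 5.09 on the smoked arrays and 5.17, 5.33 and 5.56 on the control arrays with its stronger probe set. This is higher on the smoked array in C57 and lower in DBA and ICR, and its other probe set had the opposite sign in all 3 strains.

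**Figure D3:**
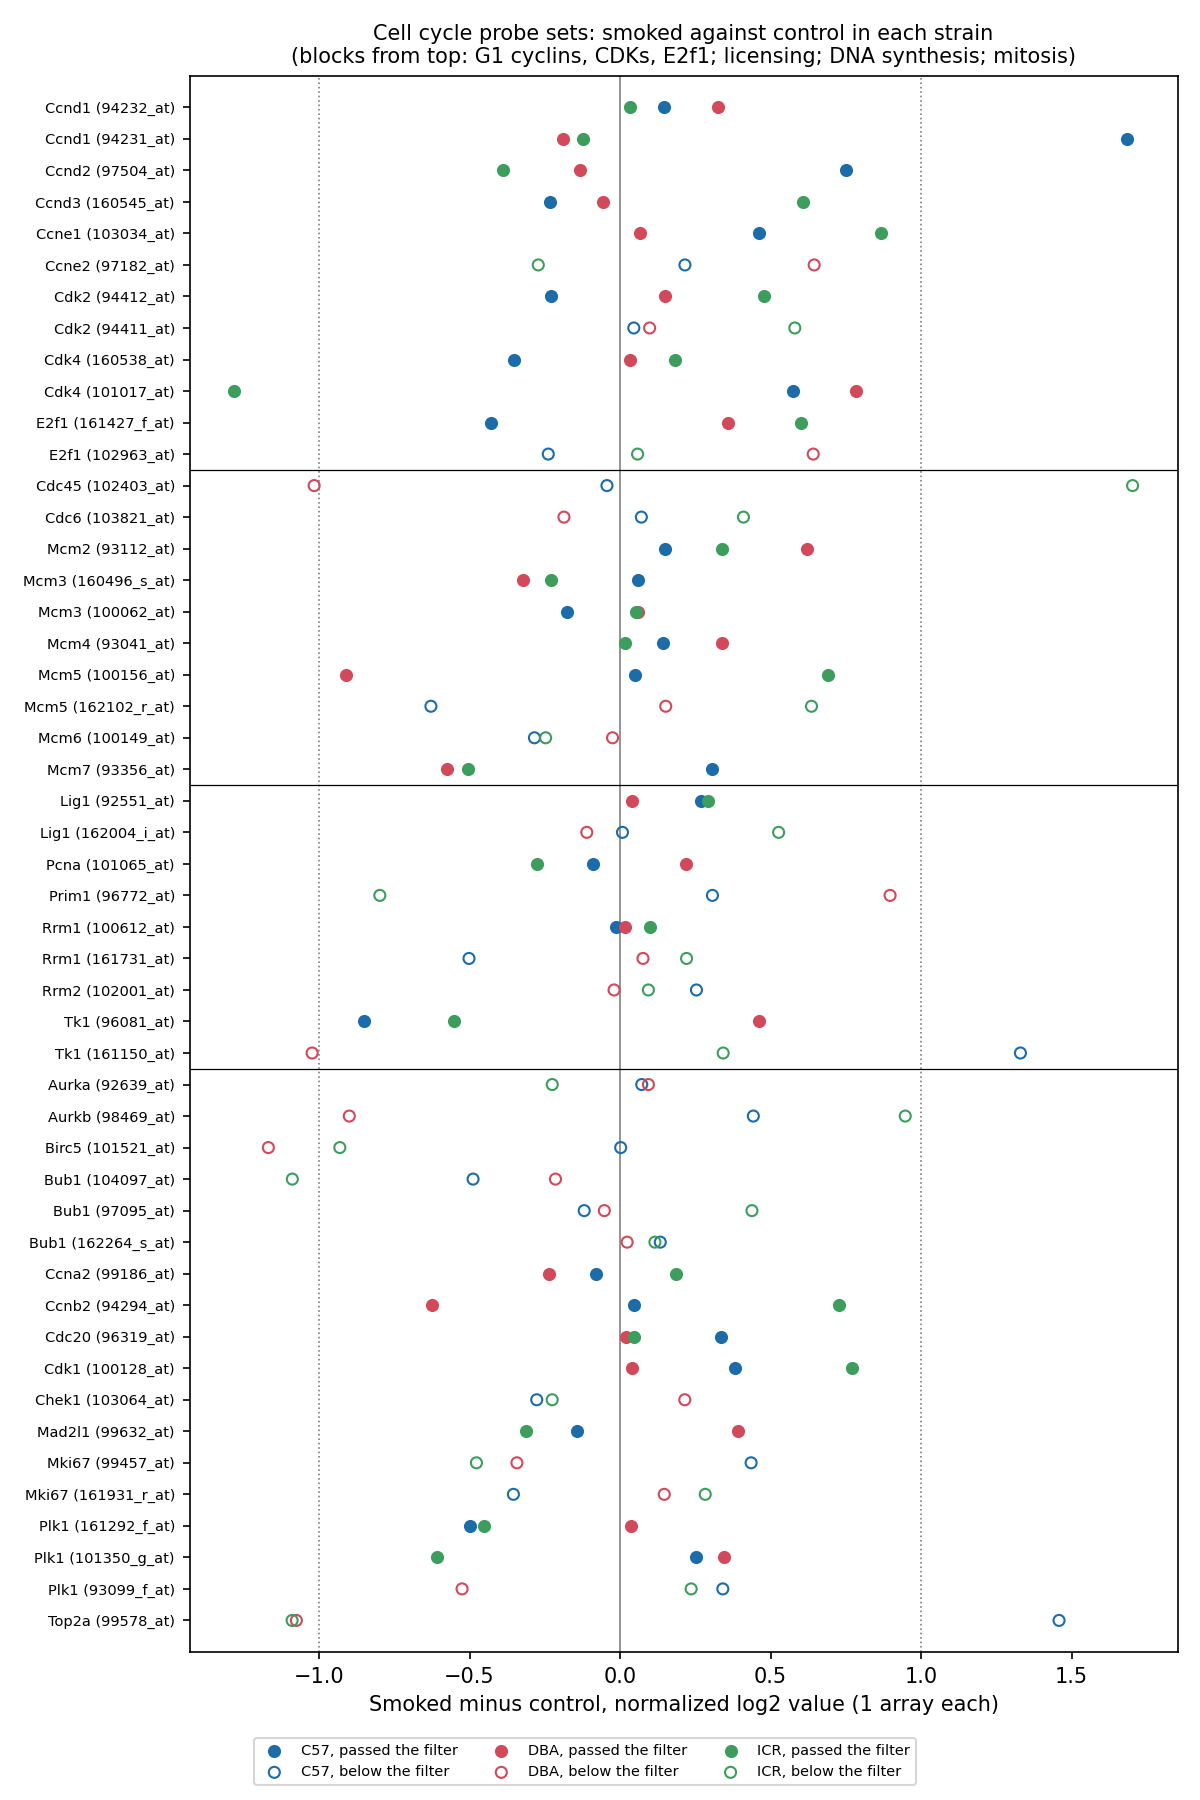
Smoked minus control, as a difference of normalized log2 values, for all 49 probe sets (rows, grouped by role) in C57, DBA and ICR (colours), 1 array each. Filled points passed the filter, open points did not, and dotted lines mark a 2-fold difference; the points of a strain lie on both sides of 0 in every role.

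Within a strain, the members' medians were 0.05 in C57, 0.03 in DBA and 0.09 in ICR (all 49 probe sets), and those of all probe sets were −0.01, 0.02 and 0.01. In C57 3 of the 49 were higher on the smoked array by 2-fold or more, where 1.86% of all 12422 were, and none was lower, where 1.42% were. They were Ccnd1 on 1 probe set, Top2a and Tk1 on its dimmer probe set, with log2 differences of 1.68, 1.46 and 1.33. In DBA none was higher by 2-fold (1.55% of all) and 4 were lower (2.64% of all), these being Birc5, Top2a, Tk1 on its dimmer probe set and Cdc45, at −1.17, −1.08, −1.02 and −1.02. In ICR 1 was higher (3.89% of all), Cdc45 at 1.70. The 3 lower ones in ICR (4.71% of all) were Cdk4 on its dimmer probe set, Top2a and Bub1, at −1.28, −1.09 and −1.09. These counts rest on the constant added before the log: with 32 in its place 1 probe set was higher in C57, none was lower in DBA and 1 was lower in ICR, and with 1 in its place 3 were lower in C57, 2 were higher in DBA, and 4 higher and 6 lower in ICR.

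Most of the probe sets past 2-fold were dim. Top2a, which untangles DNA in dividing cells, had deposited intensities of 29.9, 7.91 and 2.96 on the smoked arrays of C57, DBA and ICR and 5.63, 25.1 and 19.2 on the control arrays. Birc5 (survivin, of the chromosomal passenger complex) had 23.4, 24.2 and 4.71 on the smoked arrays and 23.7, 56.5 and 22.9 on the control arrays. It was level in C57 and lower on the smoked array in DBA and ICR. Cdc45, the helicase cofactor, had 44.6, 18.5 and 29.8 on the smoked arrays and 46.5, 41.1 and 12.8 on the control arrays, level in C57, lower in DBA and higher in ICR. Aurkb (Aurora B kinase) had 15.5, 22.4 and 19.7 on the smoked arrays and 9.55, 42.8 and 16.4 on the control arrays. Bub1, a checkpoint kinase, had 2.56, 1.31 and 0.971 on the smoked arrays and 7.06, 2.98 and 11.5 on the control arrays with the probe set that passed 2-fold in ICR, mostly below the added constant. Ccne2 read 3.35, 3.72 and 3.03 on the smoked arrays and 3.13, 3.07 and 3.3 on the control arrays on the log2 scale, at the lower end of the measurement throughout. Aurka (Aurora A kinase) and Chek1, the DNA damage checkpoint kinase, differed by −0.28 to 0.21 in every pair. On the remaining dim probe sets with large differences, Mcm5 read 4.85, 4.61 and 5.18 on the smoked arrays and 5.47, 4.46 and 4.55 on the control arrays, and Rrm1 read 3.32, 3.29 and 4.28 on the smoked arrays and 3.82, 3.22 and 4.06 on the control arrays. Further probe sets of Lig1, Cdk2, Plk1 and Bub1, all below the filter and apart from those named above, differed by −0.52 to 0.58.

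For the DBA pair, Birc5, Top2a, Cdc45, Aurkb, Mcm5 and Ccnb2 were picked because they read lower on the smoked array. Only Mcm5 and Ccnb2 of these passed the filter. The members as a whole did not read lower: over all 49 probe sets, 28 were higher and 21 lower, with a median of 0.03. Of all 12422 probe sets, 6458 were higher and 5942 lower in this pair. Markers of other cells differed in this pair as well. The 11 neutrophil and bone marrow genes, all measured, summed to 1110 normalized intensity units on the DBA smoked array and 15883 on the DBA control array, with a median difference of −1.88. The same sums were 1304 and 2462 on the C57 and ICR smoked arrays and 1155 and 3394 on their control arrays. S100a8, an abundant neutrophil gene, had deposited intensities of 242 on the DBA smoked array and 6766 on the DBA control array. Elane and Mpo, of neutrophil precursors, had deposited intensities of 47.3 and 18.8 on the DBA smoked array and 107 and 31.2 on the DBA control array. T cell markers (4 of 6 measured) summed to 103 on the DBA smoked array and 225 on the DBA control array, and between 122 and 166 on the other arrays. B cell markers (5 of 6 measured) summed to 319 and 637 on the same arrays, and between 540 and 804 elsewhere. Alveolar macrophage markers (5 of 7 measured) summed to 495 and 2213 in DBA, 1755 and 2176 in ICR, and 1813 and 841 in C57, smoked array before control. Chil3 was the brightest of the 5 on every array, so these sums follow Chil3 above all. In DBA Chil3 differed by −2.63 on the log2 scale, and Mrc1 and Fabp5 by −0.29 and −0.51. Marco and Fabp4 were higher on the DBA smoked array, by 0.34 and 0.16, so the gap in the sum does not hold for each marker. For thymus genes (6 of 7 measured, Ptcra below the added constant throughout) the sums were 360 and 346 in DBA, 539 and 331 in ICR, and 285 and 318 in C57, smoked array first. The median difference of these genes in ICR was −0.02. Rag1 was the largest there, at 1.22, with Satb1 and Ptcra higher too and Cd8b1, Dntt and Ccr9 lower. The part of these cells in the members' differences was not tested.

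**Figure D4:**
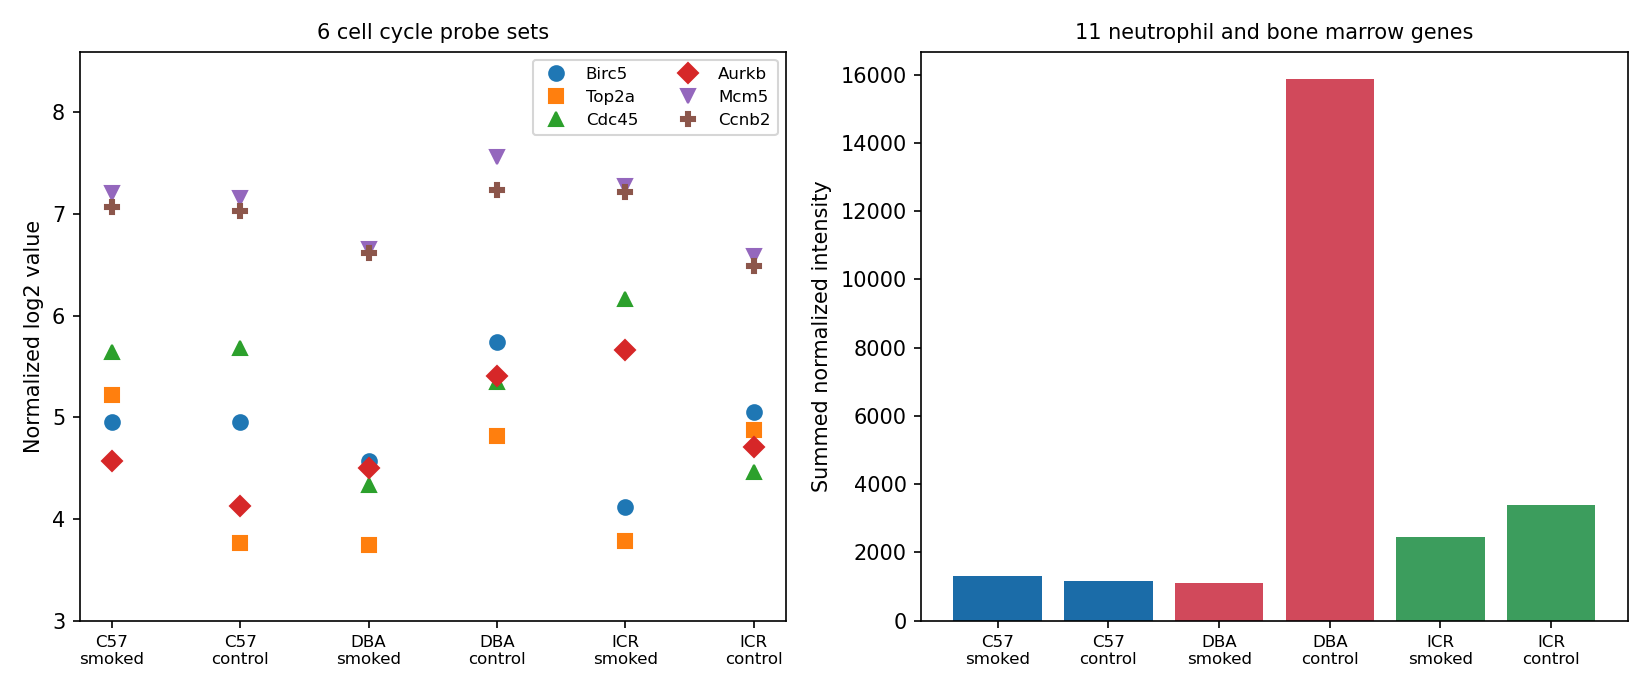
Left, normalized log2 values of 6 cell cycle probe sets on the 6 arrays; right, the summed normalized intensity of 11 neutrophil and bone marrow genes on the same arrays. The 6 probe sets were picked as lower on the DBA smoked array than on the DBA control array, where the neutrophil sum is 1110 against 15883. Over all 49 member probe sets, 28 were higher and 21 lower in that pair. The C57 and ICR pairs show no such gap in the sum.

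Whether 1 strain responded to smoke differently from the other strains was tested as an extra term in the fit, with 1 residual degree of freedom. No member was called in any of the 3 tests. For the C57 response limma called 0.134% of all probe sets and 0 of 26 members (1 at an unadjusted p under 0.05), for the DBA response 0.711% and 0 of 26 (1 at p under 0.05), and for the ICR response 0% and 0 of 26 (2 at p under 0.05, against 1067 of all 7453). The member under that p in C57 was Ccnd1 on its weaker probe set, at 1.84 (SE 0.62; adjusted p = 0.642). In DBA it was Mcm5, at −1.28 (SE 0.54; adjusted p = 0.784). In ICR the pair were Cdk4 on its dimmer probe set, at −1.96 (SE 0.35; adjusted p = 0.302), and Ccnd3, at 0.75. The 95% intervals of these tests reached beyond 2-fold for all 26 members in C57 and in DBA and for 24 of 26 in ICR. Without scaling between arrays 4 members were called in ICR, together with 1787 of all probe sets.

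Between strains, with both arrays of a strain in the fit, the only call among the members was Ccnd1, on 1 of its 2 probe sets, in ICR against C57. Cyclin D1 is the D-type cyclin through which growth factor signals reach CDK4. On the brighter probe set it read 8.35 on the smoked and 8.32 on the control array of ICR, 9.12 and 8.80 in DBA, and 9.54 and 9.39 in C57. The deposited intensities were 149 and 287 in ICR, 762 and 497 in DBA, and 852 and 832 in C57, in the same order of arrays. The strains do not overlap, and both ICR arrays are the lowest. The fitted difference was −1.13 for ICR against C57 (SE 0.21; 95% interval −1.61 to −0.65; limma adjusted p = 0.0348), which is a ratio of 0.457. DBA lay between the others, at −0.51 against C57 (adjusted p = 0.403), and ICR was at −0.62 against DBA (adjusted p = 0.218).

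The dimmer Ccnd1 probe set ordered the strains the other way round. It read 7.11 on the smoked and 7.24 on the control array of ICR, 6.75 and 6.94 in DBA, and 6.15 and 4.47 in C57. Its deposited intensities were 59.9 and 134 in ICR, 147 and 138 in DBA, and 68.4 and 14.6 in C57, so that the C57 control array stands apart at the low end. The difference was 1.87 for ICR against C57 (SE 0.44; adjusted p = 0.0699) and 1.53 for DBA against C57 (SE 0.44; adjusted p = 0.163). Without the C57 control array these were 0.95 and 0.62, and without the C57 smoked array 2.79 and 2.45. Both differences stayed positive under all 13 other settings in which this probe set was tested. The dimmer probe set was called under 3 of these in ICR against C57 and under 2 in DBA against C57. The probe sets of 1 gene thus gave opposite signs for the same strains, and no direction for cyclin D1 RNA as a whole is stated. The call on the brighter one held under 8 of 14 other settings, with adjusted p between 0.00459 and 0.212. It was lost without the filter (0.0689), without the variance trend (0.0684), and without the C57 smoked (0.103), C57 control (0.212), ICR smoked (0.0665) or ICR control (0.122) array. Skeletal muscle markers (6 of 6 measured) differed between the same strains, with sums of 164 on the smoked and 148 on the control array of ICR, 223 and 623 in DBA, and 3307 and 4801 in C57. The part of muscle tissue or of RNA quality in the Ccnd1 values was not tested.

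The share of members called can be read against all probe sets: 1 of 26 where 2.29% of all were called in ICR against C57. In DBA against C57 limma called 0 of 26 members (3 at an unadjusted p under 0.05) and 1.73% of all, and in ICR against DBA 0 of 26 (1 at p under 0.05) and 1.17% of all. The 3 contrasts share arrays and are not independent. Ccnd2 stood at 0.83 in DBA against C57 (SE 0.34; adjusted p = 0.383), and Plk1 at −0.73 in ICR against C57 (adjusted p = 0.244) on its stronger probe set. Pcna stood at 0.49 in ICR against DBA, and Rrm1 at −0.52. The 95% intervals lay within 2-fold for 20 of 26 members in DBA against C57, 15 in ICR against C57 and 17 in ICR against DBA. The members' medians were −0.11, −0.02 and −0.04 in the same contrasts, and those of all probe sets −0.03, −0.02 and 0.01.

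**Figure D5:**
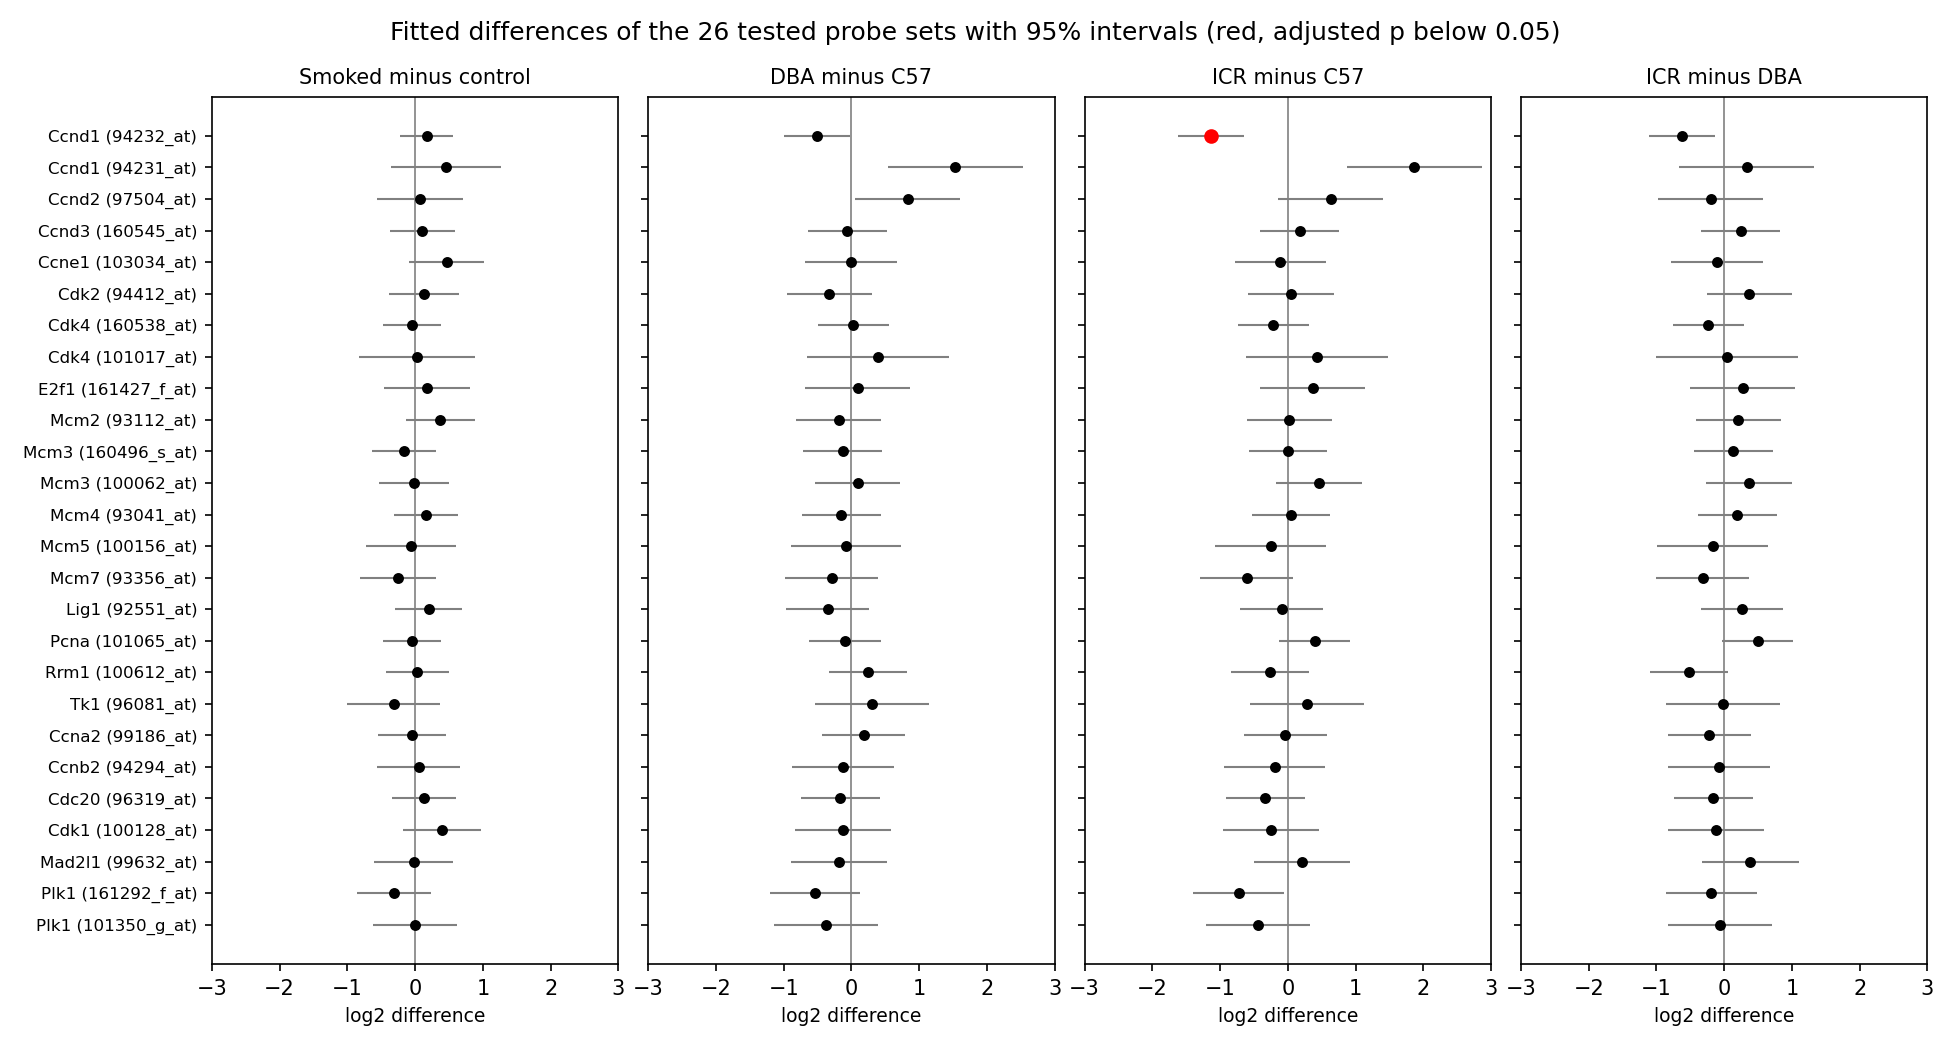
Fitted log2 differences (points) with 95% intervals (lines) of the 26 tested probe sets for smoked minus control, DBA minus C57, ICR minus C57 and ICR minus DBA, on a common axis. The brighter probe set of Ccnd1 in ICR minus C57 (red, −1.13) is the one with an adjusted p below 0.05; the smoke intervals cluster about 0.

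Several probe sets of a gene could be compared for 4 genes with 2 that passed. Their within-strain differences had opposite signs in 2 of 3 strains for Ccnd1, 2 for Cdk4, 3 for Mcm3 and 1 for Plk1. Single probe sets of these genes therefore give no settled direction for smoke within a strain.

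Other cell cycle genes were counted in 4 lists, chosen with results of these data known. Here and in the cell marker lists, each gene was represented by its probe set with the highest mean. Other probe sets of these genes were left out. Of the measured genes, 8 of 11 CDK inhibitors and retinoblastoma family members passed the filter, 4 of 9 E2F and other transcription factors, 23 of 33 other replication factors and 19 of 33 other mitosis genes, 54 in all, and limma called 0 of these for smoke exposure (0, 1, 1 and 0 had an unadjusted p under 0.05). Readings higher on the smoked array in all 3 strains were found for 1, 1, 4 and 3 of them, and lower in all 3 for 3, 0, 2 and 2. Over the 54 this makes 9 higher and 7 lower, where 9.86% and 7.77% of all probe sets tested were. Foxm1, the transcription factor of the G2 and mitosis genes, was, of the 4 transcription factors that passed, the one higher in all 3 strains, by 0.04, 0.59 and 1.08 in C57, DBA and ICR (fitted 0.57, SE 0.24; adjusted p = 1.0). Cdkn1a, the p21 inhibitor of CDKs, differed by −0.03 (SE 0.20).

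In these lists 1 of 54 genes was called in DBA against C57 and 1 of 54 in ICR against C57, where 1.73% and 2.29% of all probe sets were, and limma called 0 of 54 in ICR against DBA (4 at an unadjusted p under 0.05). Both calls were of Pttg1, which codes for securin, the inhibitor of chromatid separation. It and Foxm1 were named after their values were seen. Pttg1 had deposited intensities of 37.6 on the smoked and 138 on the control array of ICR, 191 and 182 in DBA, and 646 and 828 in C57. Both C57 arrays are above all others. The fitted difference was −2.38 in ICR against C57 (SE 0.25; limma adjusted p = 0.00213) and −2.03 in DBA against C57 (SE 0.25; adjusted p = 0.00511). The first was called under all 14 other settings and the second under 13, the exception being no scaling between arrays (adjusted p = 0.102). The probe set is of a kind that can match more than 1 transcript.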

How the data were processed

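Total RNA from mouse lung was labelled with biotin after oligo(dT) priming and hybridised to Affymetrix arrays, per the labels' protocols. The deposited table holds 1 intensity per probe set and array on a linear scale, from 0.0305 to 10579; no source read here states the summary method, software or scaling. Of 12488 probe sets, 10855 carry 1 gene symbol, 396 several and 1237 none.

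From the deposited intensities, log2(value + 8.05) was computed (the constant is the 20th percentile over the table) and quantile normalized, since the array medians differed by 1.45. Differences are on this scale, which understates changes of dim probe sets. Control probe sets (66) did not enter the fit. Of the remaining 12422, the 7453 whose mean over the arrays exceeded the 40th percentile did. The fit used limma 3.58.1 (lmFit, eBayes with trend) in R 4.3.3, with strain as block and Benjamini-Hochberg adjustment over the 7453. Residual degrees of freedom were 2 for smoke and 1 for the response of a strain. The titles name 1 mouse for each array. The residual spread is therefore how the smoked minus control differences vary between strains, and in a response fit between the remaining pairs only. It does not measure the spread between mice of 1 strain and exposure. The contrasts between strains assume the same smoke difference in every strain. A probe set was called at an adjusted p under 0.05. All member probe sets are accounted for; values on every array are given for the core cyclins, CDKs, helicase and synthesis genes that passed, for members called, for those past 2-fold the same way in at least 2 strains, and for the 5 largest differences either way in each strain. The members, the gene lists and these rules were chosen with earlier results of these data known. Promoter windows came from RefSeq. The fits were tested on simulated data. Figures were drawn with matplotlib 3.10.9. The number of arrays limits the precision.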

Additional observations from a re-analysis of the deposited data

Results flagged for a closer look

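In 3 probe sets the smoked array was higher by 2-fold or more in 1 strain and lower by 2-fold or more in another. All are below the filter on dim signal, each strain has 1 array per exposure, and opposite signs were the basis of the choice, so the differences below are a description. Top2a differed by 1.46 in C57, −1.08 in DBA and −1.09 in ICR (log2, smoked minus control). Cdc45 differed by −1.02 in DBA and 1.70 in ICR. Tk1, on its dimmer probe set, differed by 1.33 in C57 and −1.02 in DBA. In a limma fit without the filter, the extra response of 1 strain was not called for any of them: it was 2.54 for Top2a in C57 (adjusted p = 0.694), 2.23 for Cdc45 in ICR (adjusted p = 0.385) and 1.67 for Tk1 in C57 (adjusted p = 1.0), and over the 9 tests the adjusted p ran from 0.385 to 1.0.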

How the results depend on the processing

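The smoke effect gave 0 called members under all 12 other settings (by constant, filter, scaling, variance prior, strain block or a pair left out). With no scaling between arrays the medians of all probe sets shifted to −0.21 for smoke, 0.14 for DBA against C57, −0.73 for ICR against C57 and −0.89 for ICR against DBA, and 4 members were called in the ICR response. In ICR against C57 the count of members called was 0 without the filter and 0 without the variance trend, and with 1 array left out it lay between 0 and 2; in DBA against C57 it lay between 0 and 1. Members higher on the smoked array in all strains numbered 3 with the filter at the 60th percentile, 4 with median scaling, 0 with no scaling, and 9 to 12 with 1 pair left out, which asks for only 2 strains; those lower in all strains numbered 2 without the filter and 2 to 4 with a pair left out. Members past the fold threshold, by setting: with a constant of 1, 3 lower in C57, 2 higher in DBA, 4 higher and 6 lower in ICR; with 32, 1 higher in C57, 0 lower in DBA and 1 lower in ICR; with median scaling, 4 higher and 1 lower in ICR; with no scaling, 2 higher in DBA, 0 higher and 15 lower in ICR; at 1.5-fold, 2 lower in C57, 5 higher and 7 lower in DBA, 9 higher and 6 lower in ICR; at 3-fold, 1 higher in C57, 0 lower in DBA and 0 lower in ICR. The dimmer Ccnd1 probe set in ICR against DBA (0.33) changed sign to −0.62 with no scaling, −0.15 without the DBA smoked array and −0.1 without the ICR control array, and ran up to 0.82 with another array left out; the brighter one in the C57 response changed sign to 0.18 with no scaling. The cause of these changes was not tested. Over the settings limma called 0 to 11 of all probe sets for smoke, 66 to 298 for DBA against C57, 32 to 517 for ICR against C57 and 12 to 261 for ICR against DBA. No paired analysis by replicate number was possible because each group has 1 array. Strain was the block in the smoke and response fits, apart from 1 smoke fit without it. The contrasts between strains had smoke exposure as the covariate.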
